A study of Rattus norvegicus with 12 samples.

Results

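The genes of neuropeptide processing and secretory granules were examined in the hypothalamic arcuate nucleus (ARC) of adult rats. The set held 10 genes, Pcsk1, Pcsk2, Pcsk1n, Cpe, Pam, Scg2, Scg3, Scg5, Chga and Chgb, and a gene was measured where the array's platform annotation gave a probe set exactly 1 symbol, equal to that of the gene. By this rule 9 of the 10 genes were measured, with 11 of the 31042 probe sets, and Pcsk1 was not analysed here. For each gene the probe set with the highest mean over all 12 arrays is called the main probe set. Pam had 3 probe sets, with 1367687_a_at as the main one, and each other measured gene had 1.

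RNA was from male Wistar rats, 6 control and 6 recuperated, killed at 3 months of age, with 1 animal per array. Controls were offspring of control dams. Recuperated rats were born to dams fed 8% protein in pregnancy and were, like the controls, nursed by control dams from postnatal day 3, but in smaller litters that held males alone, whereas control litters held both sexes. All offspring ate standard chow after weaning, the ARC was cut from stained sections by laser capture, and the small amounts of RNA were amplified before hybridisation. Values are log2 expression from RMA, a procedure that corrects background and equalises arrays, and each is given here as its distance above the median of its own array, so that 1 unit is a doubling. A level depends also on the hybridisation of the probe set, and genes were therefore not compared by level.

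Peptide hormones and neuropeptides are made as inactive precursors that enter the regulated secretory pathway. In the maturing granule, prohormone convertases cut the precursor at paired basic residues, a carboxypeptidase removes the exposed basic residues, and many peptides are then amidated at the carboxyl end, which most amidated peptides need for activity. Granins are acidic proteins that condense with the peptides and help granules to form. In the ARC this machinery matures the products of Pomc, Cartpt and Npy, among others.

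Promoter windows of the members were searched for short motifs. The RefSeq promoter table of rat build GRCr8, which holds 250 bases before and 50 bases after each start, contained 8 of the 10 members. The letters TGACG, the short core of the cyclic AMP response element (CRE), occurred on either strand in 6 of these 8, Pcsk2, Cpe, Pam, Scg2, Scg3 and Scg5, and in 21.2% of all 33469 windows. The palindromic full element, TGACGTCA, which contains this core on both strands, occurred in 1 of the 8, Scg2, and in 1.83% of all windows. The GC box GGGCGG occurred in 6 of 8 members (33.1% of all windows) and TATAAA in 0 of 8 (14.2%). The stretches around the TGACG core upstream of the start are shown. This core lies in most of the members with a window, but so does the GC box, which is not shown. Chgb and Pcsk1n lacked the core. Scg5 held a second core at base 15 after the start, also not shown. Each stretch is written 5′ to 3′ on the strand of its gene, with the core, or the full element of Scg2, in capitals.
Pcsk2 (chr3:151333861-151333905, plus strand): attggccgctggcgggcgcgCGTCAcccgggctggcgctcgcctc
Cpe (chr16:29796514-29796558, plus strand): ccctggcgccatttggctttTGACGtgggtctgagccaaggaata
Pam (chr9:105570243-105570287, plus strand): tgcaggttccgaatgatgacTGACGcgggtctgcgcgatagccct
Scg2 (chr9:88256965-88257009, minus strand): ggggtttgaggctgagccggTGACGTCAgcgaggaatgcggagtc
Scg3 (chr8:85322529-85322573, minus strand): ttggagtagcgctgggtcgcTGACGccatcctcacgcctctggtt
Scg5 (chr3:121042796-121042822, minus strand): agcttggttgcggagggaggTGACGca

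The motif began 173 bases before the start in Cpe, 123 in Scg2, 105 in Pam, 69 in Scg3, 57 in Pcsk2 and 7 in Scg5. Such matches describe letters in a window and do not show that a factor binds there.

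Of the arrays, recuperated array 4 stood apart. The mean of 6 markers of the ventromedial nucleus (VMN), which borders the ARC, was 3.58 log2 units above the median there and 0.59 to 1.91 on the other 11 arrays. The mean of 11 ARC markers was 1.04 there and 3.13 to 3.47 elsewhere. By group, the VMN level ranged from 0.67 to 1.91 in control and from 0.59 to 3.58 in recuperated arrays, and the ARC level from 3.28 to 3.44 and from 1.04 to 3.47, respectively. The ARC level was lower than in every control array on 4 of 6 recuperated arrays. Its group difference was -0.49 (exact permutation test, p = 0.0411; 0.452 after Benjamini-Hochberg adjustment over the 11 marker lists), and without recuperated array 4 it was -0.12 (p = 0.0758; adjusted 0.417). Of these markers, 4 of 6 and 8 of 11 lay above the median on all 12 arrays. Nr5a1, which defines the VMN, lay above the median on 1 array, recuperated array 4. Recuperated array 4 also had the highest level of neuron markers, at 4.98 against at most 4.36 elsewhere, and of oligodendrocyte markers, and the lowest of tanycyte, at 0.50 against at least 1.58, microglia, astrocyte and pituitary markers. All 8 neuron and all 8 astrocyte markers lay above the median on every array, whereas 0 of 8 pituitary markers did. For the members, values without recuperated array 4 are given below, and a fit with the VMN level as a covariate called 0 of 9 after adjustment. The part of the ARC marker level in the results was not tested, and fewer cells of a type cannot be told apart from less RNA per cell in such tissue.

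All 9 measured genes had a main probe set brighter than the array median, on each of the 12 arrays. None of the genes passed the test for a difference between recuperated and control animals. By limma with Benjamini-Hochberg adjustment over all probe sets, 0 of 9 member genes were called, as were 0 of 31042 probe sets (0.0%), with a smallest adjusted p of 0.999. At an unadjusted P under 0.05, limma found 1071 probe sets (3.45%), 1 of them among the 11 of the members, and the methods' t-test found 1063 and 1, with 0 of 31042 left after adjustment. At the study's threshold of 1.3-fold with P under 0.05 from limma, 0 of 11 member probe sets were called, where 766 of all probe sets (2.47%) were, 371 higher (1.2%) and 395 lower (1.27%). The median log2 fold change of the 9 genes was -0.0050, and that of all probe sets was -0.028. The sizes that these data allow are given for each gene by the 95% interval of its difference, which limma computes and which is not adjusted for the number of genes.

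**Figure D1:**
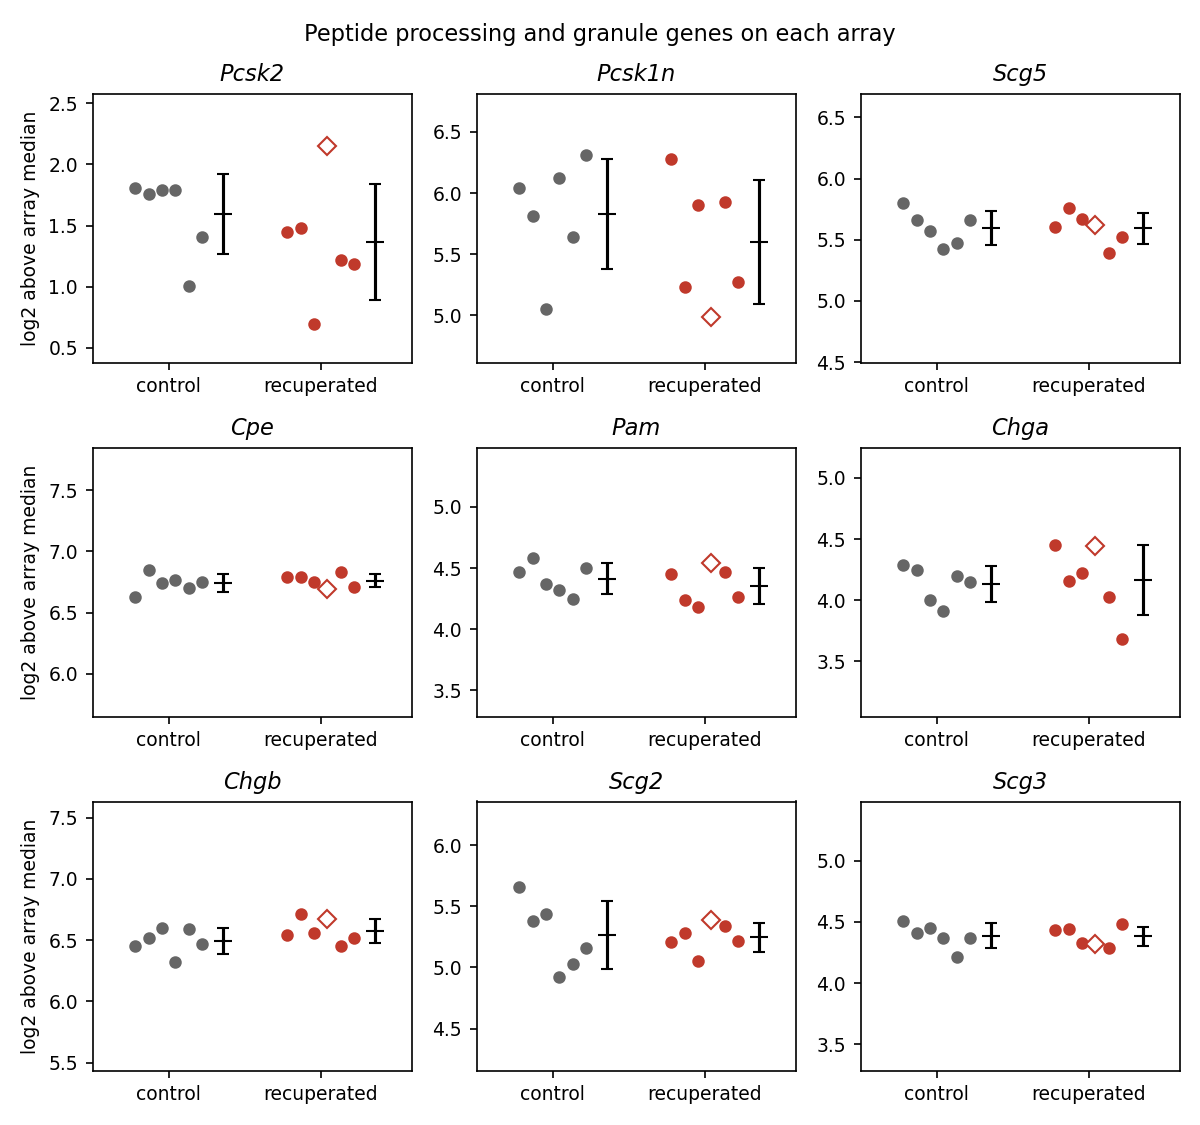
Log2 expression above the array median of the main probe set of each measured gene, with grey points for control and red points for recuperated animals, recuperated array 4 as an open diamond, and group mean ± SD as bars (n = 6); every panel spans the same number of log2 units. Cpe and Scg3 are the tightest, Pcsk2 and Pcsk1n scatter most, and the groups overlap in every panel.

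Pcsk2 encodes prohormone convertase 2, which completes the cutting of precursors such as the one encoded by Pomc. Its main probe set read 1.01 to 1.81 in control arrays, with a median of 1.78, and 0.70 to 2.15 in recuperated arrays, with a median of 1.34. Most recuperated arrays thus lay low, but the highest value of all 12 arrays was also a recuperated one, array 4, and the groups overlapped. The control mean was 1.60 ± 0.32 and the recuperated mean 1.37 ± 0.48 (SD, n = 6 each). A two-sided exact permutation test, whose p is called the exact p from here on, gave p = 0.361 for the difference between the groups. The log2 fold change was -0.23 (standard error 0.22; 95% interval -0.70 to 0.24). Without recuperated array 4 it was -0.39 (95% interval -0.79 to 0.015). It was -0.097 without recuperated array 3, where the gene was lowest, -0.35 without control array 5 and -0.27 with the VMN level as a covariate. Both intervals include no difference as well as a decrease by more than 1.3-fold.

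Convertases act with binding proteins, 2 of which are in the set. Scg5 encodes 7B2, which helps convertase 2 to mature and inhibits it until the granule acidifies. Scg5 read 5.42 to 5.80 in control arrays, median 5.62, and 5.39 to 5.76 in recuperated arrays, median 5.61, so that both groups covered nearly the same range. Its log2 fold change was -0.0033 (standard error 0.11; 95% interval -0.24 to 0.24; exact p = 0.987), which in folds spans 0.845 to 1.18.

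Pcsk1n encodes proSAAS, which inhibits prohormone convertase 1. It read 5.05 to 6.31 in control arrays, median 5.93, and 4.99 to 6.28 in recuperated arrays, median 5.59. High and low arrays occurred in both groups, and the lowest was recuperated array 4. The log2 fold change was -0.23 (standard error 0.25; 95% interval -0.76 to 0.31; exact p = 0.426). It was -0.11 without recuperated array 4 and -0.13 without control array 6, but -0.36 without recuperated array 1 and -0.38, past 1.3-fold, without control array 3, and -0.19 with the VMN level as a covariate. Of the 9 main probe sets, that of Pcsk1n had the widest interval.

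Cpe encodes carboxypeptidase E, the enzyme that trims basic residues from cut peptides and the sole carboxypeptidase in the set. It read 6.63 to 6.85 in control arrays, median 6.75, and 6.69 to 6.83 in recuperated arrays, median 6.77. All 12 values lay within 0.22 log2 units, and the recuperated values fell inside the control range. The log2 fold change was 0.020 (standard error 0.096; 95% interval -0.19 to 0.23; exact p = 0.623), so that a difference of 1.3-fold in either direction lies outside the interval. The highest deposited value of any member was 13.09, on arrays whose brightest probe sets reached 14.16 to 14.44, and whether such bright probe sets still follow the amount of RNA was not tested.

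Pam encodes peptidylglycine alpha-amidating monooxygenase, which makes the carboxyl-terminal amide. Its main probe set read 4.25 to 4.58 in control arrays, median 4.42, and 4.18 to 4.54 in recuperated arrays, median 4.36, and its log2 fold change was -0.058 (standard error 0.11; 95% interval -0.30 to 0.18; exact p = 0.474). The other Pam probe sets lay below the array median on 12 of 12 arrays and differed in sign. One of them, 1370502_at, read -3.12 to -1.55 in control and -2.49 to -1.65 in recuperated arrays, a difference of 0.25 on the log2 scale (standard error 0.23; p = 0.357 by the exact permutation test) that went from 0.096 without control array 3 to 0.41, past 1.3-fold, without control array 4. The dimmest, 1370689_at, read -3.94 to -3.46 in control arrays, median -3.73, and -4.42 to -3.78 in recuperated arrays, median -4.02. On this probe set 4 of 6 recuperated arrays lay below every control array and 0 of 6 above the control mean. The deposited log2 values of this probe set were 1.86 to 2.80, where array medians were at least 6.21. Its log2 fold change was -0.30 (standard error 0.14; 95% interval -0.60 to -0.0078; exact permutation test, p = 0.0368). It fell short of 1.3-fold and did not pass limma's adjustment over all probe sets (adjusted p = 0.999). Limma's unadjusted P was 0.0450, and it ranged from 0.0261 without recuperated array 4 to 0.115 without recuperated array 6. The exact test was run on 11 probe sets of the set, of which this was the only one under 0.05.

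**Figure D2:**
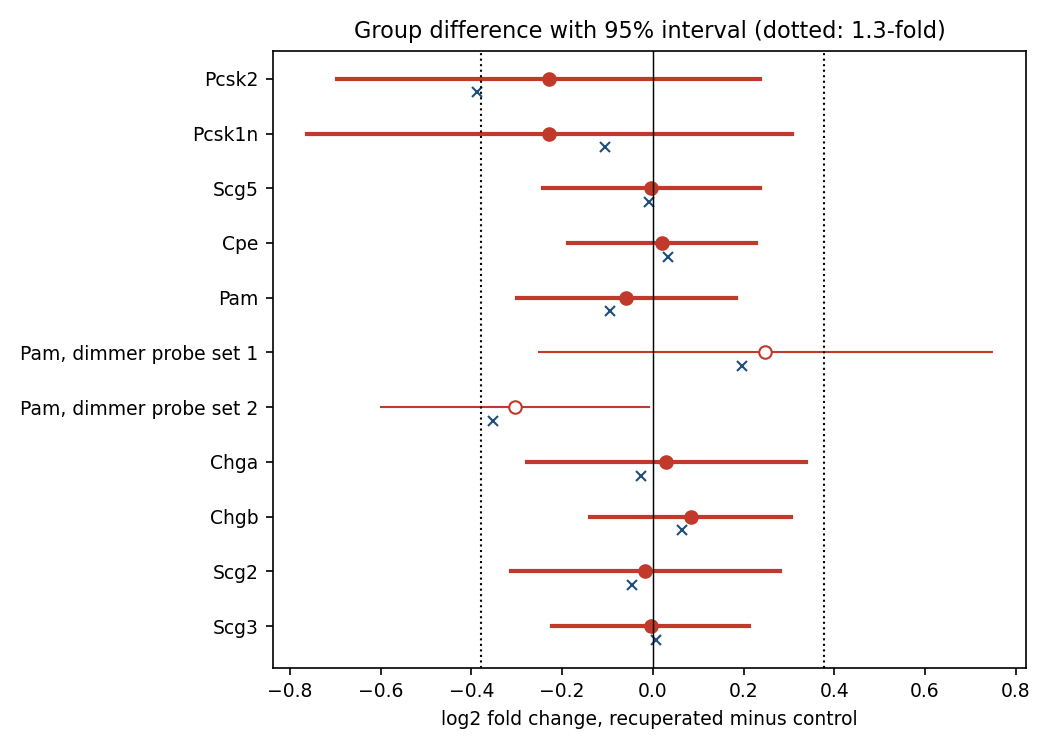
Log2 fold change, recuperated minus control, of every probe set of the measured genes (points; filled for the main probe set) with the 95% interval from limma (bars) and the value without recuperated array 4 (blue crosses); dotted lines mark 1.3-fold. The intervals of Pcsk2 and Pcsk1n cross the lower line, and those of the other 7 main probe sets lie between the lines.

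The granins Chga and Chgb encode chromogranin A and chromogranin B, the main acidic proteins of the granule core. Chga read 3.91 to 4.29 in control arrays, median 4.18, and 3.68 to 4.45 in recuperated arrays, median 4.19. The recuperated arrays were the more scattered, with 2 of 6 above and 1 of 6 below every control array. The log2 fold change of Chga was 0.030 (standard error 0.14; 95% interval -0.28 to 0.34; exact p = 0.855) and -0.025 without recuperated array 4. Chgb read 6.32 to 6.60 in control arrays, median 6.50, and 6.45 to 6.71 in recuperated arrays, median 6.55. On 5 of 6 recuperated arrays Chgb lay above the control mean. It had the largest positive value of the 9 genes, a log2 fold change of 0.083 (standard error 0.10; 95% interval -0.14 to 0.31; exact permutation test, p = 0.197).

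Scg2 and Scg3 encode secretogranin II, the precursor of the peptide secretoneurin, and secretogranin III, which tethers granins to the granule membrane. Scg2 read 4.92 to 5.66 in control arrays, median 5.27, and 5.05 to 5.39 in recuperated arrays, median 5.25. Here the control arrays were the more scattered and enclosed all recuperated values, and its log2 fold change was -0.017 (standard error 0.14; 95% interval -0.31 to 0.28; exact p = 0.900). Scg3 read 4.21 to 4.51 in control arrays, median 4.39, and 4.29 to 4.48 in recuperated arrays, median 4.38, and its log2 fold change was -0.0050 (standard error 0.10; 95% interval -0.22 to 0.21; exact p = 0.939). The signs of Scg2, Scg3 and Scg5 were negative here and positive without the subtraction of array medians, each by under 0.02 log2 units.

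Without recuperated array 4 the log2 fold change was -0.095 for the main probe set of Pam, 0.034 for Cpe, 0.064 for Chgb, -0.045 for Scg2, 0.0073 for Scg3 and -0.0087 for Scg5.

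In all, the 95% interval lay within 1.3-fold in either direction for 7 of the 9 genes, all but Pcsk2 and Pcsk1n. The same was true of 19.6% of all 31042 probe sets and of 60.3% of the 1785 probe sets whose mean lay at least 4 log2 units above the array median, as the means of 8 of the 9 genes did, Pcsk2 being the exception. This count over intervals was chosen after the values had been seen. It was 3 with the animal number as a block, 5 with array quality weights and 6 or 7 when single arrays were left out.

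How closely animals of a group resembled each other differed widely between the genes. The within-group SD was 0.064 log2 units for Cpe, 0.090 for Scg3, 0.10 for Chgb, 0.13 for Scg5 and 0.14 for Pam. It was 0.21 for Scg2, 0.23 for Chga, 0.41 for Pcsk2 and 0.48 for Pcsk1n. The median over the 9 genes was 0.14, against 0.32 over all probe sets and 0.18 over the 1785 bright ones. Bright probe sets vary less, so each gene was set beside the probe sets in the same step of 1 log2 unit of mean level. Of 1107 probe sets in the step of Scg3, 2.35% had a smaller SD, and of 155 in that of Cpe 6.45% did. For Pcsk1n, 98.2% of 509 probe sets had a smaller SD. Relative to probe sets of like level, Scg3 and Cpe thus varied little and Pcsk1n much, which describes these 12 arrays.

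**Figure D3:**
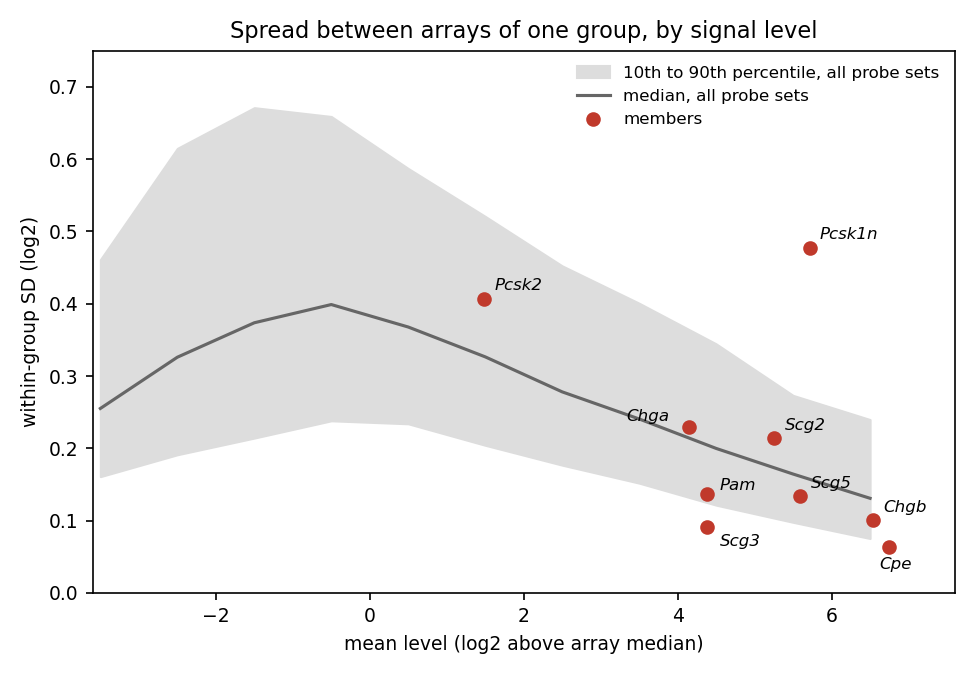
Within-group SD from limma against mean level above the array median, with the median (line) and the range from the 10th to the 90th percentile (grey) of all probe sets in steps of 1 log2 unit, and the 9 member genes as red points. Pcsk1n lies above the grey range at 0.48, whereas Scg3, at 0.090, lies below it. Cpe, at 0.064, lies to the right of the end of the grey range and under the 10th percentile of its step, 0.075.

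The members had their extremes on different arrays. Control array 1 held the highest value of 3 genes, Scg2, Scg3 and Scg5, and the lowest of Cpe. Highest values of the 9 genes were spread over 6 arrays and lowest values over 7. After removal of the group means, Pearson's r over the 12 arrays was highest between Pcsk2 and Pam, at 0.63, and lowest between Pcsk1n and Chgb, at -0.69. Among 9046 genes brighter than the median of the array on 6 or more arrays, the closest to Cpe was Snap29, a SNARE protein gene, with r = 0.96, and the closest to Scg2 was Atf2, a transcription factor gene, with r = 0.94. The closest were Akap8l to Pcsk1n (r = 0.95), Xpo6 to Pam (r = 0.93), Mrpl20 to Pcsk2 (r = 0.92) and Lrpprc to Chgb (r = 0.91). They were Hgh1 for Scg5 (r = 0.89), Ssu72 for Scg3 (r = 0.88) and Sod2 for Chga (r = 0.86). None of these was a member. The values are the highest of 9046 over 12 arrays, are large through that choice and are given as a description without a test.

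Recuperated array 4, with its high VMN and low ARC marker levels, allowed the members to be set beside the peptide precursors. There, 10 of 11 ARC markers and 14 of 28 precursor genes lay below all other arrays, with 4 more precursors above them. Because this array was singled out by its marker levels, the ARC marker values here restate that choice. The precursor and marker lists share 7 genes, so the precursor values restate it in part. Npy was 0.91 on this array and 4.32 to 5.50 on the others. Of the 9 processing and granule genes, 2 lay outside the range of the other arrays, Pcsk2 above it, at 2.15 against at most 1.81, and Pcsk1n below it, at 4.99 against at least 5.05. Of all probe sets, 27.2% lay outside that range on this array and 9.33% to 23.8% on the others. The distance of recuperated array 4 from the mean of the others had a median size of 0.15 log2 units over the members, 1.23 over the precursors and 2.08 over the ARC markers. These medians were not matched for level. Bright probe sets vary less, and the means of 8 of the 9 members lay at least 4 log2 units above the array median. The contrast rests on 1 array and was not tested.

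**Figure D4:**
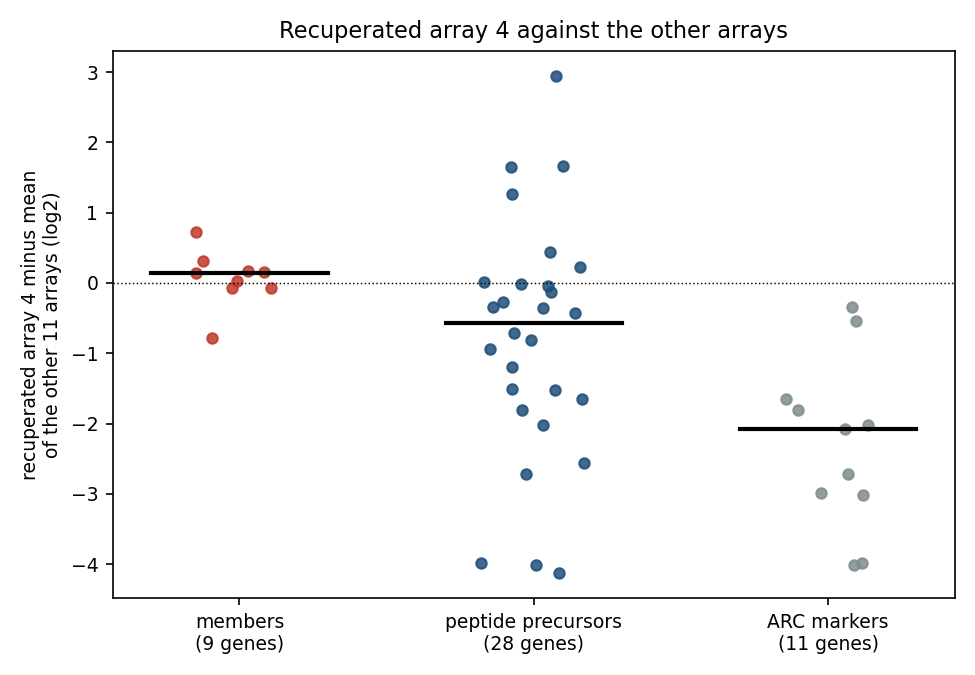
Log2 level on recuperated array 4 minus the mean of the other 11 arrays, 1 point per gene, for the 9 members, 28 peptide precursors and 11 ARC markers, with 7 genes in both of the latter; bars are medians. The members lie between -0.79 and 0.73, whereas the precursors reach from -4.13 to 2.95. All ARC markers, whose mean level set this array apart, are below 0.

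Around the set, 89 other genes of peptide production and breakdown were listed in 6 groups, of which 84 were measured. Limma called 0 of 84 after adjustment over all probe sets, and 1 of 84 met 1.3-fold with P under 0.05, as did 2.47% of all probe sets. Of the log2 fold changes 29 were positive and 55 negative, where 13464 of 31042 were positive over all probe sets. The medians of the groups depended on recuperated array 4. Without it they lay between -0.064 and -0.022 in all 6 groups, beside -0.025 for the members and -0.026 for all probe sets.

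Among 6 other proprotein convertases, which act mostly in the general secretory route or at the cell surface, 0 passed either threshold and the median log2 fold change was -0.063. Furin, the convertase of the trans-Golgi network, was at 3.58 ± 0.25 in control against 3.26 ± 0.53 in recuperated arrays (SD, n = 6 each), a log2 difference of -0.32 (standard error 0.22; p = 0.210, exact permutation test). Its recuperated arrays were split, with 4 below and 2 above every control array. Without recuperated array 1, Furin passed 1.3-fold with P under 0.05. Pcsk6, at -0.26, and Mbtps1, which encodes the site-1 protease, at -0.16, did not pass either.

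Of 11 genes of peptide trimming and modification, 0 passed, with a median of -0.082. Cpd, a carboxypeptidase of the trans-Golgi network related to Cpe, differed by 0.17 on the log2 scale (standard error 0.18; p = 0.403, exact permutation test) and by 0.078 without recuperated array 4, and Cpm, a carboxypeptidase bound to the cell surface, by -0.24 (standard error 0.28) and -0.36. Ctsl, the cathepsin L gene, read 3.74 on recuperated array 4 and 4.21 to 4.61 on the others, and its log2 fold change went from -0.18 to -0.077 without that array.

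Of 9 genes of other granule cargo and membrane proteins, 0 passed, 7 were negative and the median was -0.073. Vgf, a granin-like precursor, was at -0.082 (standard error 0.16; 95% interval -0.42 to 0.26) and at 0.037 without recuperated array 4. Ptprn and Ptprn2, which encode granule membrane proteins of the tyrosine phosphatase family, were at -0.17 (standard error 0.18) and -0.013 (standard error 0.11), and at -0.077 and -0.050 without that array. Resp18, a protein of endocrine granules, was at -0.23, and at -0.11 without recuperated array 4, where it was lowest. Atp6ap1, an accessory subunit of the proton pump, was at -0.073.

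In the group of 18 genes of granule biogenesis and release, 0 passed and the median was -0.023. The smallest p values belonged to Pick1, a membrane-bending protein gene, at -0.29 (standard error 0.15; exact p = 0.0909), Rph3al, an effector of Rab27 and Rab3 proteins, at -0.54 (standard error 0.29) and -0.29 without recuperated array 4, where it was lowest, and Syt10, a synaptotagmin gene, at 0.36 (standard error 0.21). All 6 recuperated arrays lay above the control mean of Syt10, but the exact permutation test gave p = 0.0996 and the value was 0.17 without recuperated array 4. Rph3al passed 1.3-fold with P under 0.05 with the VMN level as a covariate, at -0.48, and with the animal number as a block. Pick1 passed without recuperated array 1, at -0.38.

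Of 28 peptide precursors, 1 passed 1.3-fold with P under 0.05, 21 were negative and the median was -0.18. Without recuperated array 4 the median was -0.046, with 19 negative. The gene that passed was Pmch, the melanin-concentrating hormone precursor of the lateral hypothalamus, at 1.5 (standard error 0.69; exact permutation test, p = 0.0974). It missed the P threshold when control array 1, 2, 5 or 6 was left out, and likewise for recuperated array 1, 2 or 4, where limma's unadjusted P was 0.0618 to 0.114 and the log2 fold change 0.99 to 1.53. It also missed it with the VMN level as a covariate, with array quality weights and by the methods' t-test. Npvf, at -0.47 (standard error 0.26), and Oxt, the oxytocin gene, at -0.40 (standard error 0.23), did not pass. Npvf passed with the VMN level as a covariate, at -0.51, and without control array 6, at -0.60. Oxt passed with the animal number as a block and without recuperated array 6, at -0.50. The median within-group SD of the precursors was 0.55, against 0.14 for the members. These medians were not matched for level. The means of 8 of the 9 members lay at least 4 log2 units above the array median, whereas 18 of 28 precursors lay above it on at least 6 arrays. The SD also includes recuperated array 4, where 14 of 28 precursors lay below and 4 above all other arrays.

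Of 12 peptidases listed as breaking neuropeptides down, 0 passed and the median was 0.020. Nln, the neurolysin gene, lay above every control array on 3 of 6 recuperated arrays and above the control mean on 5. This log2 fold change of 0.18 (standard error 0.11) had an exact permutation p = 0.0476 but was under 1.3-fold, and limma gave P = 0.133 and an adjusted p = 0.999. Prcp, which encodes prolylcarboxypeptidase, an enzyme that inactivates the Pomc product alpha-MSH, was below every control array on 5 of 6 recuperated arrays and above every control array on the other. The difference was -0.37 on the log2 scale (standard error 0.19; p = 0.108, exact permutation test), and it passed 1.3-fold with P under 0.05 without recuperated array 1, the high one, and with array quality weights. Enpep, an aminopeptidase gene, was at 0.29 (standard error 0.17) and passed 1.3-fold with P under 0.05 without control array 4, at 0.38.

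**Figure D5:**
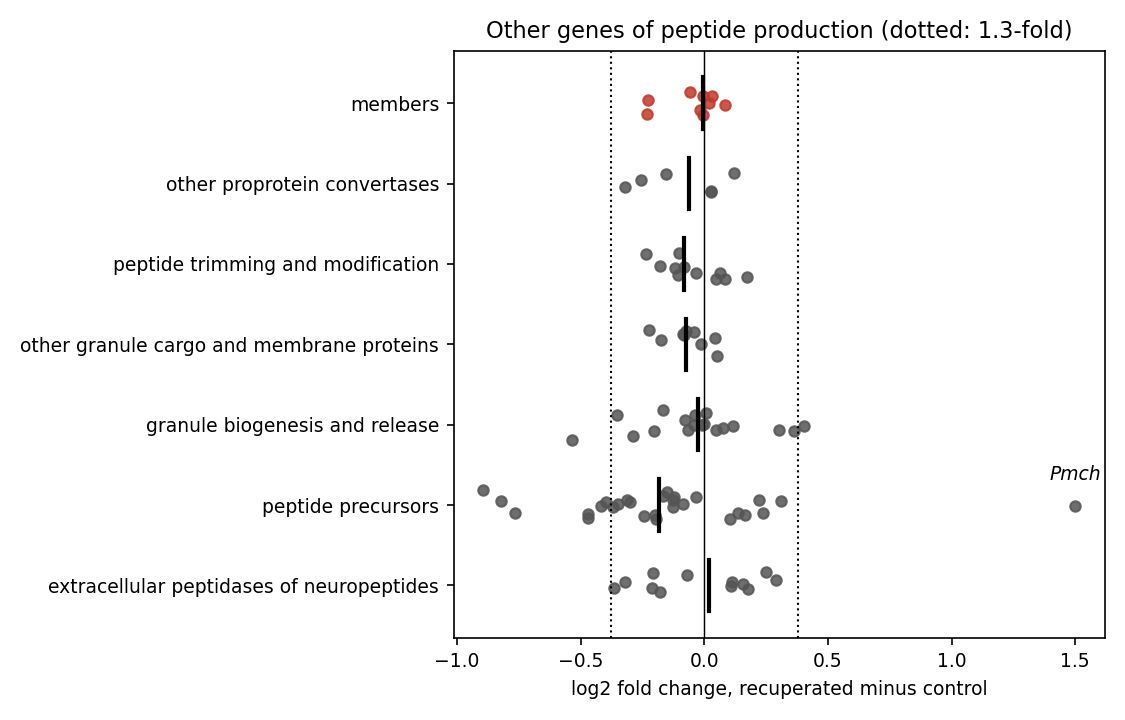
Log2 fold change, recuperated minus control, of the 9 members (red) and of 84 other genes of peptide production and breakdown by group (grey), 1 point per gene at its main probe set; black bars are medians and dotted lines mark 1.3-fold. All members lie between -0.23 and 0.083, and Pmch, at 1.5, is the one point past the line that also had P under 0.05 from limma.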

How the data were processed

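The authors deposited 1 table of log2 expression for 31099 probe sets on 12 Affymetrix rat arrays, made with RMA. Affymetrix Expression Console is the RMA software in the submitters' processing notes and GeneSpring GX that in the paper's methods, which also used GC-RMA and GCOS values, not analysed here. Replicates were not pooled, and no 2 arrays held the same values.

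Following the methods, the median of each array was subtracted, and 57 control probe sets were left out. Groups were compared by lmFit and eBayes (R 4.3.3, limma 3.58.1) without covariates or a filter on low values, with Benjamini-Hochberg adjustment over 31042 probe sets. Single probe sets were also compared with all 924 arrangements of the arrays in a two-sided exact permutation test, whose smallest possible p is 0.00216. The fit was tested on simulated data. Python 3.11.15 was used with pandas 2.3.3, scipy 1.17.1 and, for plots, matplotlib 3.10.9.

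Of the probe sets tested, 20826 carried 1 symbol in the platform annotation. The arrays name no genome build, so gene coordinates are not given, and promoter coordinates are those of the RefSeq table. Named genes were all members, Vgf, Ptprn, Ptprn2, Furin, Cpd, the 3 genes with the smallest limma p of each of the 6 groups, the gene most like each member, and Nr5a1 and Npy. The members and lists were chosen with earlier results of these data known, and the count of intervals within 1.3-fold after the values were seen. Marker levels and group medians without recuperated array 4, and the named genes under each alternative, were added after seeing the data. Besides the ARC and VMN, the marker lists were those of neurons, astrocytes and the pituitary, and of oligodendrocytes, microglia, endothelium, tanycytes, blood and other hypothalamic nuclei, whose mean levels are in the closing section. Alternatives were no median subtraction, quantile normalization, removal of dim probe sets, the VMN marker level as covariate, the methods' t-test, blocking on animal number, array quality weights, each array left out, ratios of linear means and, for Pam, the mean of its probe sets. Arrays give no read depth, and their number limits the precision. The labels give 1 animal per array, and the paper counts litters as n.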

Additional observations from a re-analysis of the deposited data

Results flagged for a closer look

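Dixon's gap test for 6 arrays, which marks about 1 in 20 groups by chance, was applied to 62 groups of arrays and marked 3, none of them in a member gene. The groups tested did not cover all of the 84 other genes, so the 3 do not show how many genes had an outlying array. On recuperated array 4, 14 of 28 precursors lay below and 4 above all other arrays. Cartpt, which was not tested, read 4.85 there and 6.56 to 6.76 on the others. Ctsl lay low on recuperated array 4, at 3.74, where the other recuperated arrays lay between 4.21 and 4.46. Syt10 lay high on the same array, at 4.09 against 2.80 to 3.13. Prcp lay high on recuperated array 1, at 1.32 against 0.03 to 0.33.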

How the results depend on the processing

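Under the alternatives of the fit 0 member genes were called after adjustment, with a smallest adjusted p of 0.937. Over all probe sets the number called was 1 with the VMN covariate and 0 to 1 when single arrays were left out. The numbers higher and lower at 1.3-fold were 118 and 150 after the filter on dim probe sets and 243 and 263 with the methods' t-test. With single arrays left out they were 342 to 476 and 352 to 622, the last without recuperated array 1. Of the member probe sets 1, the dimmest of Pam, passed 1.3-fold with P under 0.05 with array quality weights, at -0.39, and 0 did when single arrays were left out. Of the 84 other genes, 5 passed with the VMN covariate, Rph3al, Npvf, Npy, Tac3 and Galp but not Pmch. In that fit 452 of all 31042 probe sets were higher and 442 lower at this threshold. Npy, Tac3 and Galp were each lowest on recuperated array 4, where the VMN level was highest. Of the 84, 0 passed with the methods' t-test and 0 to 3 with single arrays left out. The number was 0 when control array 1, 2 or 5, or when recuperated array 2 or 4, was left out. It was 2 without control array 4 or recuperated array 6, and 3 without recuperated array 1.

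With the animal number as a replicate block, 3 of the 84 genes passed and 3 members, in place of 7, had an interval within 1.3-fold. Over all 31042 probe sets, 452 were higher and 411 lower at 1.3-fold with P under 0.05 in that fit. Same-numbered arrays did not deviate together (correlations from -0.16 to 0.080, and 0 of 6 control arrays closest to their own number). These correlations run over all probe sets and cannot exclude a weak effect shared by arrays of 1 number, so whether the numbers pair the animals stays unsettled.

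Of 219 member values under the alternatives 26 changed sign, all of differences near 0. Without the subtraction of array medians the log2 fold change was 0.0033 for Scg2, 0.015 for Scg3 and 0.017 for Scg5, and after quantile normalization it was 0.013, 0.0016 and 0.018. With array quality weights it was 0.0029 for Scg3 and -0.073 for Chga. With single arrays left out it ranged from -0.002 to 0.042 for Cpe, from -0.086 to 0.062 for Scg2, from -0.040 to 0.020 for Scg3, from -0.039 to 0.037 for Scg5 and from -0.027 to 0.13 for Chga. The causes were not tested.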

Other observations

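Of the 84 other genes of peptide production and breakdown, 28 had their lowest and 14 their highest value on recuperated array 4. Of all 31042 probe sets, 4419 lay below and 4021 above every other array there. The 28 include the 14 precursors given above. Genes of granule release were among both the lowest and the highest, and the following were chosen after their values were seen. Cadps2, a priming factor of granule release, was 3.98 there and 0.79 to 2.42 on the other arrays, and Sytl4, which encodes granuphilin, 2.80 against 0.42 to 1.56. Rab3b, a small GTPase of the granule surface, was 1.86 against 2.96 to 3.57. Their log2 fold changes between the groups, 0.30, 0.41 and -0.35, were -0.054, 0.091 and -0.12 without this array, and none passed the test.

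Mean levels of the other marker lists overlapped between the groups, and recuperated array 4 set the recuperated extreme of several: the highest for neurons and oligodendrocytes and the lowest for microglia, tanycytes and ependyma, astrocytes, blood and the pituitary. They were 3.33 to 3.83 in control and 3.32 to 3.97 in recuperated arrays for oligodendrocytes, 0.79 to 1.07 and 0.23 to 1.02 for microglia, 0.77 to 1.14 and 0.74 to 1.20 for endothelium, and 1.58 to 2.17 and 0.50 to 2.20 for tanycytes and ependyma. They were -0.75 to -0.030 and -0.67 to -0.21 for blood, and -1.18 to -0.71 and -1.14 to -0.72 for other hypothalamic nuclei. Neuron markers were at 4.10 to 4.36 and 3.95 to 4.98, astrocyte markers at 4.84 to 4.98 and 4.69 to 4.97, and pituitary markers at -1.82 to -0.27 and -2.03 to -0.68.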
